A study of Equus caballus with 4 samples.

Results

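Oxidative phosphorylation is carried out by 5 enzyme complexes of the inner mitochondrial membrane, and the genes examined here encode their subunits. They were taken from the horse array by name: gene probes whose array symbol began with NDUFA, NDUFB, NDUFC, NDUFS or NDUFV and a digit, with UQCR, with COX and a digit from 4 to 8, or with ATP5, or was SDHA, SDHB, SDHC or SDHD. This gave 145 of the 43603 gene probes on the array, for 49 of its 17157 gene names. Of these member genes, 29 belonged to complex I, 3 to complex II, 1 to complex IV and 13 to complex V. Complex III had 0, since the array lists its genes under other names, and 3 genes that the name rule caught (NDUFA4L2, ATP5S and ATP5SL) encode no subunit.

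Expression was compared in differentiating satellite cells, the stem cells of skeletal muscle, which were grown from equine m. semitendinosus and examined on day 3 of differentiation. Treated cells received gamma-oryzanol (GO), which rice bran oil contains and which is made up of ferulic acid esters of sterols, with a dose of 0.125 µM over 24 h, and 3 mM H2O2 during the last 1 h, and control cells had no GO. The labels do not say whether the control cells had H2O2, whereas the study's design shows them incubated with it. Each of 4 arrays of 1 slide held treated RNA labelled with Cy5 and control RNA labelled with Cy3, and no array had the dyes exchanged, so that dye and treatment cannot be told apart in any value below. The labels call the 4 arrays biological replicates, whereas the study's methods describe the choice of 1 primary cell line, so that no spread between animals is shown. The labels also give the control RNA of all 4 arrays as rep1, while the series counts 4 control replicates. If 1 control RNA was on all arrays, the SDs and p-values below leave out the spread between controls, and in either case they measure only the spread between these arrays.

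Complex I takes electrons from NADH and complex II takes them from succinate, and both hand them to ubiquinone. Complex III passes them on to cytochrome c and complex IV to oxygen, and the protons pumped on the way drive ATP synthesis by complex V. Nuclear genes encode most subunits, mitochondrial DNA encodes a small set of hydrophobic ones, and skeletal muscle carries its own isoforms of some complex IV subunits. The question put to the data was whether the transcripts of these machines differed between GO-treated and control cells, and in which complex.

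The subunit transcripts differed little between treated and control cells. Every value is a log2 ratio of treated over control signal, with the SD over 4 arrays, at the brightest tested probe of a gene. Of the 49 member genes, 48 were tested, and NDUFA13 of complex I and ATP5B of complex V were higher in treated cells, whereas NDUFA10 of complex I and ATP5H of complex V were lower. Past the threshold (limma, Benjamini-Hochberg adjusted p under 0.05 over 24230 probes) were thus 4 of 48 genes, 2 higher and 2 lower. Over all 9695 tested gene names the same call was made for 17.5%, with 9.44% higher and 8.08% lower. At an unadjusted p under 0.05 there were 6 higher and 9 lower member genes (31.3% of 48), against 37.4% of all tested gene names (18.7% higher and 18.6% lower).

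Counted by probe, 26 of the 144 tested member probes passed the threshold, 12 higher and 14 lower, while 17.1% of all tested probes passed, 9.49% higher and 7.59% lower. Of the 12 higher probes, 10 were to ATP5B, so that the probe count on this side came mainly from 1 gene. The mean ratios of the 48 genes ran from -0.20 to 0.28. Their median absolute ratio was 0.07, against 0.09 over all tested gene names, and the median 95% interval of a member gene reached 0.110 to either side of its mean. In bulk RNA, fewer cells of a type and less RNA per cell cannot be told apart.

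The median ratio of the 48 genes was -0.03 (16 above and 32 below 0), or 0.03 where median centring replaced loess. Over all tested gene names it was -0.004. The arrays were not alike in this respect: the median of the member genes was 0.03 on replicate 1, 0.00 on replicate 2, -0.12 on replicate 3 and -0.02 on replicate 4. On replicate 3 the ratio was lower than on replicate 1 for 43 of 48 genes and lower than on replicate 2 for 44, and 36 of 48 genes were below 0 there, against 20, 24 and 29 on replicates 1, 2 and 4. The median over all tested gene names on replicate 3 was -0.0004. Replicate 3 also had the lowest median for mitochondrial ribosomal proteins (-0.18) and assembly factors (-0.14). It did not for cytosolic ribosomal proteins (0.03), regulators of mitochondrial biogenesis (-0.02) or the tricarboxylic acid cycle (-0.10). For 21 of 48 genes (43.8%) the 4 arrays gave ratios of a single sign, as they did for 44.7% of all tested gene names. The number of member genes with a mean above 0 depended on the scaling, at 16 of 48 as reported, 20 with processed signals, 23 with a running median over signal and 25 with median centring.

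**Figure D1:**
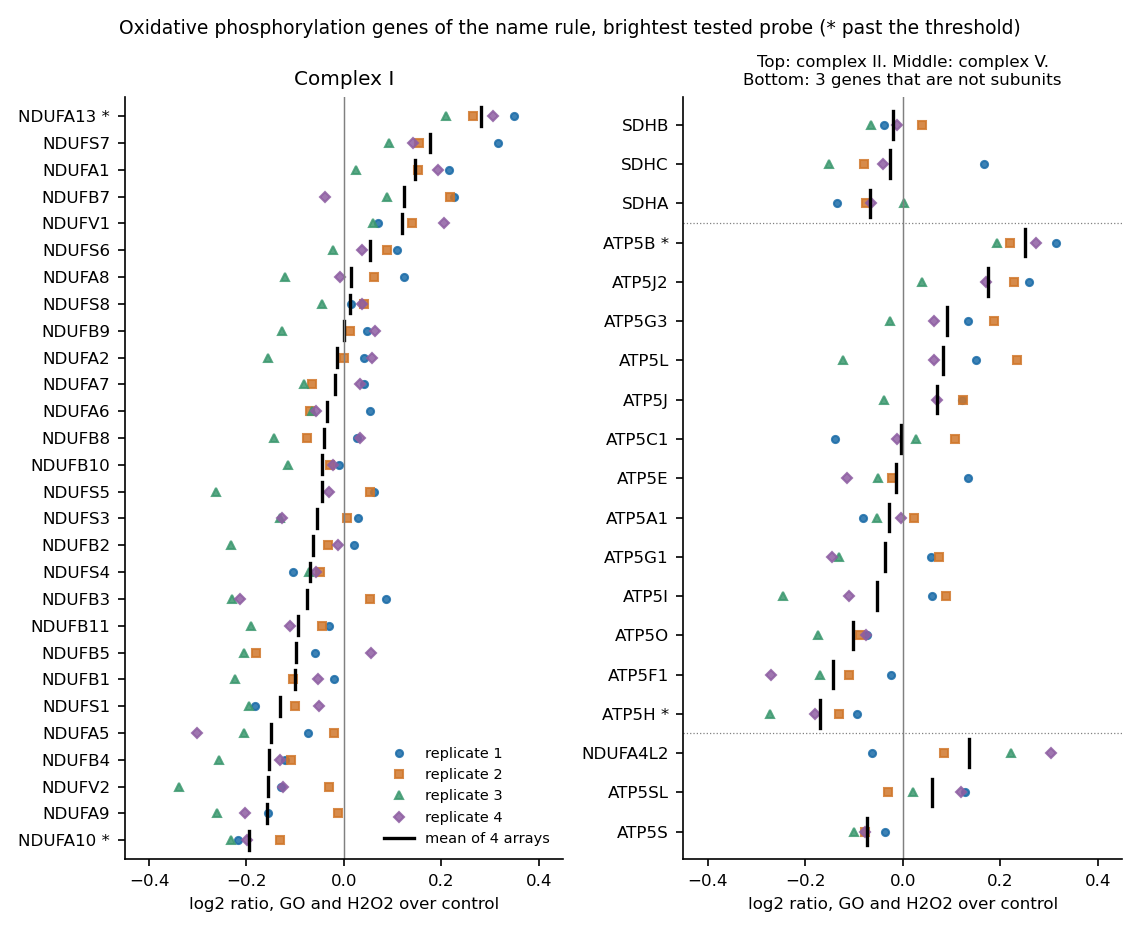
Log2 ratio of treated (GO and H2O2) over control cells for the tested member genes (1 gene of complex I is not shown) at the brightest tested probe, with 1 symbol per array and a black bar for the mean of 4 arrays. Most means lie within 0.2 of 0, the 4 genes past the threshold (starred) stand at the ends of complexes I and V, and the triangles of replicate 3 lie to the left of the other arrays for most genes.

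Member genes were bright on these arrays, with a median log2 signal of 13.3 at their brightest probe. Over all tested gene names it was 8.70, and 5.63% of these were brighter than the member median. Spot brightness depends on the probe as well as on the transcript and is not used here as an expression level. Brightness matters because the ratio of all probes drifted upwards in the brightest range after loess. The 405 tested probes with a log2 signal above 16 had a median ratio of 0.14, with 148 probes called higher and 8 called lower, whereas the median of the other probes was 0.00. Among the member genes, only ATP5A1 and ATP5B had their brightest probe above this signal.

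**Figure D2:**
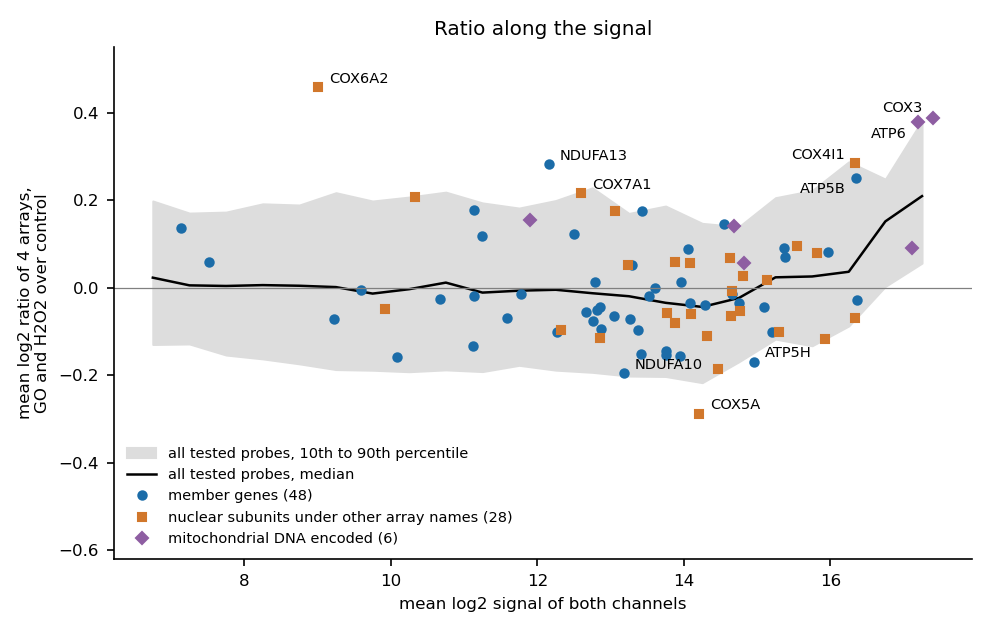
Mean log2 ratio of 4 arrays against mean log2 signal of both channels for member genes (circles), nuclear subunits under other array names (squares) and subunits encoded by mitochondrial DNA (diamonds), over the median and the 10th to 90th percentile of all tested probes in steps of signal. The median of all probes rises in the brightest range, where ATP5B, COX4I1, ATP6 and COX3 lie, while NDUFA13, COX6A2 and COX7A1 lie where it is near 0.

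Complex I is the largest of the 5 machines. It has core subunits, of which those encoded in the nucleus hold the flavin and the iron-sulfur clusters, and accessory subunits around them. Of its 29 member genes, 1 was higher, 1 was lower and 27 did not pass the threshold, with a median ratio of -0.04 (0.03, -0.01, -0.13 and -0.02 on replicates 1 to 4). NDUFA13, also known as GRIM-19, is an accessory subunit of the membrane arm that is needed for the complex to assemble. Its 1 probe lies in build EquCab1 on the unplaced sequence, at chrUn:219163507-219163566 on the plus strand, and begins with the bases that follow.

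NDUFA13 probe 1: tctcaatgccacctacggcttcatatggta

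NDUFA13 had log2 ratios of 0.35, 0.26, 0.21 and 0.31 on replicates 1 to 4. All 4 arrays lay above 0, with replicate 1 highest and replicate 3 lowest. The mean was 0.28 ± 0.06 (SD, n = 4; 95% interval 0.18 to 0.38; limma adjusted p = 0.0166), a 1.22-fold higher signal in treated cells and the largest ratio among the 48 tested member genes.

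NDUFA10, an accessory subunit that resembles nucleoside kinases, had the lowest ratio. At its brighter probe (chr6:25638001-25638060, minus strand) the values were -0.22, -0.13, -0.23 and -0.20 on replicates 1 to 4. All 4 lay below 0, and the mean was -0.20 ± 0.04 (SD, n = 4; limma adjusted p = 0.0271). Its other probe lies next to it (chr6:25638065-25638124) and had values of -0.11, 0.05, -0.08 and 0.03, with a mean of -0.03 (limma adjusted p = 0.674). Neighbouring probes of 1 gene thus gave different calls, and with the mean over both probes the ratio of NDUFA10 was -0.11 (adjusted p = 0.0985). The first 30 bases of both are shown as the 2 stretches that gave these values, and no bases are marked because the probes do not overlap on the chromosome.

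NDUFA10 probe 1: gtggaaggaaactgccgtcccaaagcattt
NDUFA10 probe 2: aaacttgaacagtagaaggaaaggcctagc

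The 7 core genes encoded in the nucleus had no call, with a median ratio of 0.01. NDUFV1, which binds NADH and flavin, had 0.12, and its partners in NADH oxidation NDUFV2 and NDUFS1 had -0.16 and -0.13. Of the core subunits on the path to ubiquinone, NDUFS7 had 0.18 ± 0.10 (limma adjusted p = 0.0518), NDUFS8 had 0.01 and NDUFS3 had -0.06. None of these was past the threshold, and they lay on both sides of 0 within each of these groups. The 22 accessory genes had a median of -0.04, with NDUFA13 higher and NDUFA10 lower.

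Other accessory genes were called at a dimmer probe only, and they were named after their values had been seen. NDUFB4 had 5 probes, each shifted by 1 base from the next, with means from -0.22 to -0.14. Of these, 2 passed the threshold, while the brightest did not (-0.15 ± 0.07; limma adjusted p = 0.0536). All 5 lay below 0 on each of the 4 arrays. NDUFA5 was lower at 1 of 5 probes and NDUFA1 was higher at 1 of 5, with ratios of -0.15 and 0.15 at the brightest probe and limma adjusted p of 0.106 and 0.0715. The other 17 accessory genes did not pass at any probe, with ratios from -0.16 (NDUFA9, an accessory subunit that binds NADPH) to 0.12 (NDUFB7).

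Complex II, succinate dehydrogenase, is the only one of the 5 that also belongs to the tricarboxylic acid cycle, and nuclear genes encode all of it. Of its 3 member genes, 0 passed the threshold (0 also at an unadjusted p under 0.05), and the median ratio was -0.03. SDHA, the flavoprotein, had -0.14, -0.07, 0.00 and -0.07 on replicates 1 to 4 (-0.07 ± 0.06; limma adjusted p = 0.271). SDHB, the iron-sulfur protein, had -0.04, 0.04, -0.07 and -0.01 (-0.02 ± 0.05; limma adjusted p = 0.754). SDHC, a membrane anchor, had -0.03 ± 0.14. In SDHB and SDHC the SD between arrays was larger than the ratio, and in SDHA it was slightly smaller. In each of these genes 3 of 4 arrays lay below 0.

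Complex V, ATP synthase, has a catalytic head, F1, joined to a membrane part by a central and a peripheral stalk. Of its 13 member genes, 1 was higher, 1 was lower and 11 did not pass, with a median ratio of -0.01 (0.11 with median centring, and 0.00 or 0.01 with processed signals or a running median over signal). By array the medians were 0.06, 0.09, -0.05 and -0.01. In the head, counted here with the central stalk, 1 of 4 member genes was higher. In the membrane part and the peripheral stalk, 1 of 9 was lower.

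ATP5B, the beta subunit that holds the catalytic sites, had the most probes of any member gene. At the brightest (chrUn:195724629-195724688, minus strand) its ratios were 0.31, 0.22, 0.19 and 0.27 on replicates 1 to 4. All 4 lay above 0, and the mean was 0.25 ± 0.05 (SD, n = 4; 95% interval 0.15 to 0.35; limma adjusted p = 0.0191), a 1.19-fold higher signal. The means of its 11 probes ran from 0.14 to 0.26, all above 0, and 10 passed the threshold. These are not separate measurements of the gene: 10 of the 11 probes overlap within chrUn:195724610-195724689, and only probe 11 (chrUn:195725842-195725901) lies elsewhere. Probe 11 had 0.08, 0.12, 0.19 and 0.19 on replicates 1 to 4 (0.14 ± 0.05; limma adjusted p = 0.0548). The local median of all probes at the signal of the brightest ATP5B probe was 0.05, and less this median ATP5B had 0.20 (adjusted p = 0.0286). The first 30 bases of probes 1, 2 and 11 show this layout, with capitals for the bases that probes 1 and 2 share.

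ATP5B probe 1: catGAGAGCCTTGACTGAAGACATTGTGTT
ATP5B probe 2: GAGAGCCTTGACTGAAGACATTGTGTTcta
ATP5B probe 11: ggaagataagttgactgtgtctcgtgcacg

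Some member probes were on the array more than once, which measured the error of a ratio between spots of an array. Error from labelling, dyes or differences between arrays is not part of it. There were 6 pairs of probes of identical sequence, 4 for ATP5B and 2 for NDUFS5, an accessory subunit of complex I. Their means over 4 arrays differed by 0.006 to 0.042. On replicates 1 to 3 the values of a pair differed by at most 0.086, whereas on replicate 4 they differed by up to 0.264.

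ATP5A1, the alpha subunit that alternates with beta in the head, was not called at its brightest probe (-0.03 ± 0.05; limma adjusted p = 0.628), although 3 of its 5 probes were lower. Its 4 brightest probes overlap in steps of 20 bases between positions 58446454 and 58446573 of chromosome 8 (minus strand). Listed by start position, they are probes 3, 4, 1 and 2, and their mean ratios were -0.02, -0.16, -0.03 and -0.17. Probes 4 and 2 were below 0 on all 4 arrays (-0.18 to -0.13 and -0.21 to -0.11), and both passed the threshold (limma adjusted p of 0.0359 and 0.0371). Probe 5, at chr8:58450172-58450317, had -0.17 ± 0.08 (limma adjusted p = 0.0462). Probes that share most of their bases thus fell into separate ranges, and the rule of the brightest probe took one of the smaller ratios. In the stretches below, capitals mark bases repeated in the neighbouring stretch.

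ATP5A1 probe 3: TGGTGAAAGGattactcgtatgctccagat
ATP5A1 probe 4: GTTCTAGTAAtcagttccatTGGTGAAAGG
ATP5A1 probe 1: GTTTGGTTCTctcgtcgtttGTTCTAGTAA
ATP5A1 probe 2: tggattcacatcaaataccaGTTTGGTTCT
ATP5A1 probe 5: tagtagatgcccttggtaatgccattgatg

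The other head genes, ATP5C1 for the gamma subunit of the rotor shaft and ATP5E for its epsilon subunit, had ratios of -0.00 ± 0.10 and -0.01 ± 0.11. Both had arrays on either side of 0. Among the head genes caught by name, only ATP5B was thus past the threshold at the brightest probe. ATP5F1D, a further gene of this part under another array name, was also called and is given below.

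ATP5H, subunit d of the peripheral stalk, had -0.09, -0.13, -0.27 and -0.18 on replicates 1 to 4 at its brightest probe (chr11:5626482-5626541, plus strand). All arrays lay below 0, with replicate 3 lowest. The mean was -0.17 ± 0.08 (SD, n = 4; limma adjusted p = 0.0467), a signal of 0.890 of that in control cells. Its other probes (chr11:5626452-5626511 and chr11:5626422-5626481) gave -0.29 and -0.25, so that 3 of 3 probes were lower, and neighbouring probes overlap by 30 bases or adjoin. With processed signals ATP5H had -0.17 (adjusted p = 0.0678). The stretches are shown because all 3 were called.

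ATP5H probe 1: gttggggagaaagctctggtgctcgtcttg
ATP5H probe 2: cacaagccaattgagaatttataaactgga
ATP5H probe 3: ttagacaagaagaagtacccttattggcct

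The other stalk genes, named after their values had been seen, were ATP5F1 (subunit b) with -0.14 ± 0.10 and ATP5O (the oligomycin sensitivity protein at the top of the stalk) with -0.10 ± 0.05. Neither passed at the brightest probe (limma adjusted p of 0.0911 and 0.116), and each had 1 dimmer probe that did, at -0.17 and -0.18. All probes of both genes lay below 0. ATP5J, coupling factor 6 of the same stalk, had 0.07 ± 0.08 at its brightest probe and -0.13 at another.

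In the membrane part, ATP5J2 (subunit f) had 0.17 ± 0.10 (limma adjusted p = 0.0529). Less the local median of all probes at its signal it had 0.20 and was called (limma adjusted p = 0.0479). ATP5G3 and ATP5G1, which encode the same mature c subunit of the rotor ring, had 0.09 ± 0.09 and -0.04 ± 0.12. ATP5L (subunit g) had 0.08 ± 0.15 and ATP5I (subunit e) had -0.05 ± 0.16. Without this local median none of these 5 genes passed the threshold, and replicate 3 gave the lowest value in 4 of them.

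**Figure D3:**
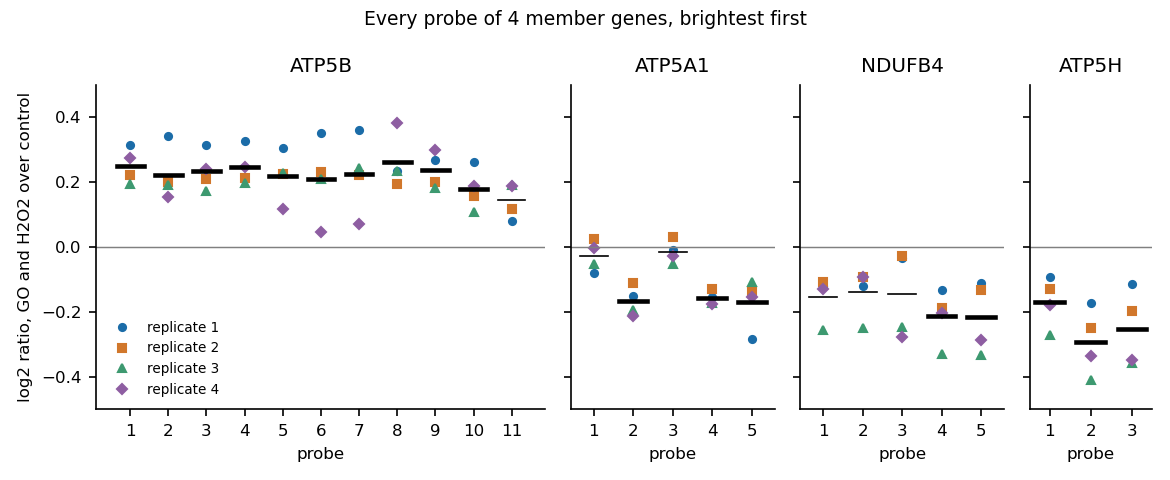
Log2 ratio of treated over control cells at every probe of ATP5B, ATP5A1, NDUFB4 and ATP5H, numbered from the brightest, with 1 symbol per array and a bar for the mean (thick where past the threshold). All probes of ATP5B lie above 0 and all of NDUFB4 and ATP5H below 0, while ATP5A1 has 2 probes near 0 and 3 near -0.17.

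Across the 29 member genes with more than 1 tested probe, all probes had means of 1 sign in 20 genes. Calls of opposite direction within a gene were found in 0 genes. Any probe past the threshold was found in 11 member genes, and in 7 of them (ATP5A1, NDUFB4, ATP5S, ATP5F1, ATP5O, NDUFA5 and NDUFA1) only a dimmer probe passed. Of these 7, NDUFA1 was higher and the other 6 were lower. Genes with any probe past the threshold were not counted over all gene names, so these counts have no share to be set against.

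The genes caught by name that encode no subunit had no call at the brightest probe. NDUFA4L2, a relative of NDUFA4 known for its induction at low oxygen, had -0.06, 0.08, 0.22 and 0.30 on replicates 1 to 4 (0.14 ± 0.16; limma adjusted p = 0.177), and its arrays lay on both sides of 0. ATP5S, also known as factor B of ATP synthase, had -0.07 ± 0.03 (limma adjusted p = 0.208), with 2 of 4 probes lower. ATP5SL, now known as an assembly factor of complex I, had 0.06 ± 0.08 (limma adjusted p = 0.370). COX4I2, the isoform of complex IV subunit 4 known from lung and low oxygen, was the only complex IV gene caught by name. It was not well above background, with 1 of 4 arrays in treated cells and 0 in control cells, and was not tested.

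Further subunits were on the array under other names, and they were looked up after the array names had been seen. These were 35 genes, 21 named through a RefSeq gene table, 7 through the probe description and 7 by an array symbol that the rule does not cover. Of the 29 nuclear ones, 28 were tested, with 5 higher and 1 lower and a median ratio of -0.03. Called were thus 21.4%, against 17.5% of all tested gene names (9.44% higher and 8.08% lower). Complex III, whose genes were all of this kind, had 0 of 8 genes past the threshold (1 lower at an unadjusted p under 0.05), with ratios from -0.10 to 0.07 and a median of -0.06 (0.06 with median centring). In complex I, NDUFA3 was higher at 0.18 ± 0.03 (limma adjusted p = 0.0304), and a gene described as NDUFA3-like, which the array may not tell apart from it, had 0.21. In complex V, ATP5F1D, the delta subunit of the central stalk, was higher at 0.21 ± 0.11 (limma adjusted p = 0.0429), but not with processed signals (0.21, adjusted p = 0.0626).

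Complex IV, cytochrome c oxidase, held the highest and the lowest ratio of all tested nuclear subunits. Of 12 tested genes, 3 were higher, 1 was lower and 8 did not pass, with a median of 0.01. In this small set 33.3% were called, against 17.5% of all tested gene names. COX6A2, the isoform of subunit 6A in heart and skeletal muscle, had 0.64, 0.37, 0.35 and 0.47 on replicates 1 to 4 (0.46 ± 0.13; limma adjusted p = 0.0148; 1.38-fold). COX7A1, the muscle isoform of subunit 7A, had 0.27, 0.13, 0.23 and 0.24 (0.22 ± 0.06; limma adjusted p = 0.0250), and 2 of 2 probes were higher. COX4I1, the widely expressed form of subunit 4, had 0.38, 0.25, 0.22 and 0.29 (0.28 ± 0.07; limma adjusted p = 0.0177), and 4 of 5 probes were higher. COX4I1 lies in the brightest range and had 0.50 with median centring (not past the threshold) and 0.21 with processed signals. COX5A had -0.24, -0.19, -0.38 and -0.35 (-0.29 ± 0.09; limma adjusted p = 0.0193), and 5 of 5 probes were lower. These 4 genes had 1 sign on all arrays.

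The widely expressed partners of the muscle isoforms did not pass: COX6A1 had -0.07 ± 0.08 (0.15 with median centring) and COX7A2 had -0.11 ± 0.16. Within arrays, COX6A2 exceeded COX6A1 by 0.66, 0.37, 0.52 and 0.56, a mean of 0.53 ± 0.12 (0.29 ± 0.20 with median centring). COX7A1 exceeded COX7A2 by 0.27, 0.13, 0.57 and 0.35, a mean of 0.33 ± 0.18 (0.24 ± 0.21 with median centring). In both pairs the muscle isoform had the higher ratio on 4 of 4 arrays, and the exact two-sided sign-flip permutation test gave p = 0.125 for each, the smallest that 4 arrays allow (2 comparisons, adjusted p = 0.125). The other genes of this list, COX6B1 (0.10), COX7B (0.03) and a COX8B-like gene (0.05), did not pass, and COX7B2 was not well above background.

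Of 9 markers of muscle cells on the array, 9 were above background. In treated cells 6 of them (66.7%) were higher and 0 lower, against 9.44% and 8.08% of all tested gene names. Their median ratio was 0.25 (0.28, 0.23, 0.33 and 0.16 on replicates 1 to 4). With processed signals or offset 0, 4 of 9 were higher (median 0.20 and 0.24), as they were with a running median over signal (0.16), and with median centring 0 were (0.31). TNNT3 (fast troponin T) had 0.44 ± 0.10 and MYOG (myogenin) had 0.33 ± 0.13. ACTC1 (cardiac actin, expressed in young myotubes) had 0.44 ± 0.07, but it lies in the brightest range, and less the local median of 0.35 it had 0.09 (adjusted p = 0.177). Of fibroblast markers, 6 of 7 were above background, with THY1 higher (0.28) and LUM lower (-0.43). Of endothelial markers 0 of 5 and of adipocyte markers 0 of 4 were above background, and of immune markers 2 of 5 were, with CD14 lower (-0.17). The part of cell composition or of differentiation in the isoform values was not tested.

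The 6 genes of mitochondrial DNA found on the array had ratios above 0 (5 of 6 with processed signals or a running median over signal), with a median of 0.15. Of them, 2 (33.3%) were called higher, against 9.44% of all tested gene names. COX3 had 0.47, 0.41, 0.36 and 0.31 on replicates 1 to 4 (0.39 ± 0.07; limma adjusted p = 0.0125), and ATP6 had 0.48, 0.37, 0.37 and 0.30 (0.38 ± 0.08; limma adjusted p = 0.0133). Both lie in the brightest range, where the local median of all probes was 0.32 for COX3 and 0.23 for ATP6. Less this local median they had 0.06 and 0.15 and were no longer called (adjusted p of 0.433 and 0.0667). With processed signals COX3 had 0.25 (adjusted p = 0.0584).

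**Figure D4:**
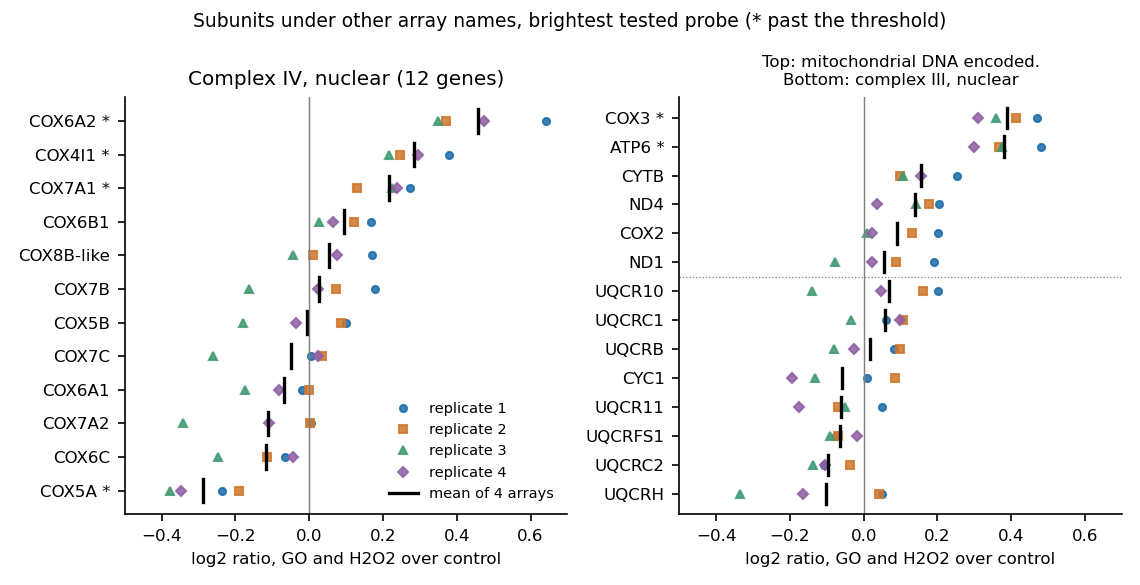
Log2 ratio of treated over control cells at the brightest tested probe of complex IV and complex III subunits under other array names and of subunits encoded by mitochondrial DNA, with 1 symbol per array and a black bar for the mean. COX6A2, COX4I1 and COX7A1 stand above the other nuclear genes and COX5A below them, and the complex III genes lie near 0.

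Other mitochondrial genes were counted to set the subunits beside them. Of 44 tested assembly factors, 1 was higher and 5 were lower (median -0.08), with LRPPRC, which stabilises mitochondrial mRNA, at -0.25 ± 0.03 and NDUFAF5 and SDHAF4, assembly factors of complexes I and II, at -0.31 ± 0.15 and -0.20 ± 0.06. Of 17 genes of the tricarboxylic acid cycle and of pyruvate dehydrogenase, which feeds it, 1 was higher and 4 were lower (median -0.08), all 5 among the 13 genes of the cycle itself, with MDH2 at -0.25 ± 0.05, IDH3A at -0.26 ± 0.07 and SUCLG2 at -0.24 ± 0.11. Of 67 mitochondrial ribosomal proteins, 1 was higher and 11 were lower (median -0.08). The shares called in these 3 lists were 13.6%, 29.4% and 17.9%, against 17.5% of all tested gene names. Of 14 regulators of mitochondrial biogenesis, 0 passed in limma (1 higher and 5 lower at an unadjusted p under 0.05; 0 to 3 lower over the other scalings). Of 5 genes of electron carriers and of the ATP synthase inhibitor, 0 passed in limma (1 higher at an unadjusted p under 0.05, which was ETFB). Against these lists, the 48 member genes had 2 calls in each direction (8.33% called) and a median of -0.03. A difference between the lists was not tested.

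The calls rested on most of the arrays. Without replicate 1, 3 or 4, 0 of the 4 called member genes and 0 of the 12 called subunit genes in all passed the threshold (adjusted p from 0.0573 to 0.145), and over all probes 2, 38 and 0 passed, so that this loss was not particular to the subunits. Without replicate 2, 10 of the 12 passed and ATP5H had an adjusted p of 0.0644. With median centring, or with the methods' t-test run on the loess ratios used here, 0 of the 12 passed. With unpaired channels COX3, ATP6 and COX6A2 did.

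**Figure D5:**
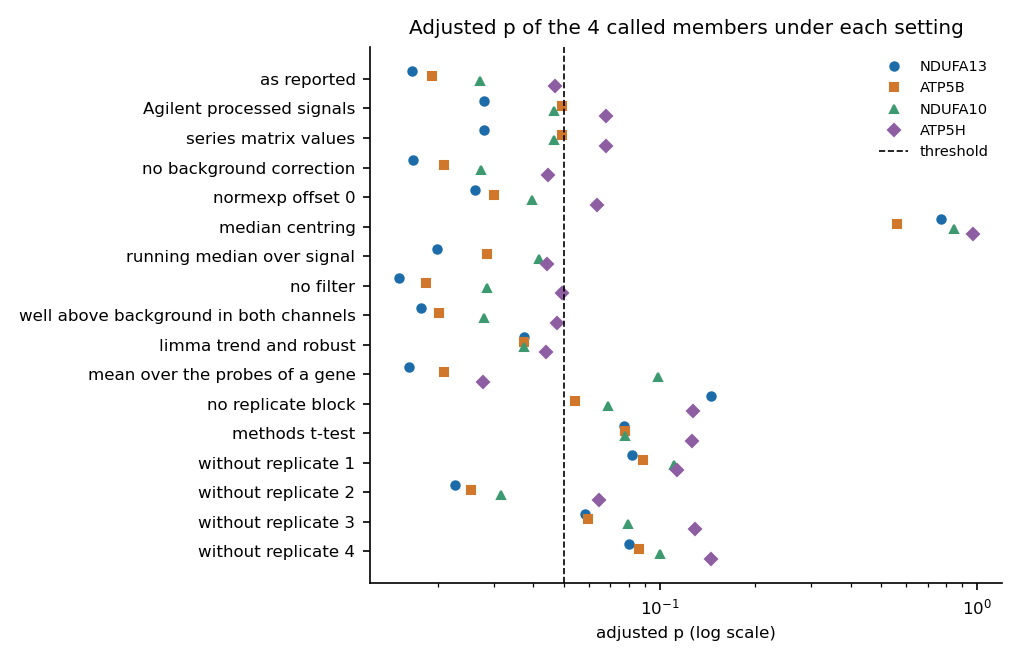
Adjusted p (log scale) of NDUFA13, ATP5B, NDUFA10 and ATP5H as reported and under each other setting, with the threshold as a dashed line. NDUFA13, ATP5B and NDUFA10 pass under the choices of background, scaling and filter shown other than median centring, ATP5H also fails with processed signals, the series matrix and offset 0, and none passes with median centring, with the channels unpaired, with the methods' t-test or without replicate 1, 3 or 4.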

How the data were processed

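Equine satellite cells treated with GO and H2O2 were hybridised against control cells on 4 two-colour Agilent horse arrays. The deposited files hold intensities per spot, read from scans by the authors with Agilent Feature Extraction software. Mean and background intensities were as scanned, and the deposited processed intensities were background-subtracted and normalised between dyes, per the file headers. A deposited log10 ratio divides processed red by processed green, and the series matrix of the authors repeats it (largest difference 0, column medians 0).

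Mean intensities were corrected with normexp (offset 50) and normalised within arrays by loess, with control spots at weight 0. Control spots and the 7 to 16 outlier spots of each array were dropped, and repeated spots of 1 probe were averaged. Saturation was not seen. Of gene spots 54.9% to 61.4% exceeded background clearly. A probe entered the fit where 4 of 4 arrays exceeded background clearly in red or in green (24230 of 43603). The number of arrays limits the precision. From the deposited intensities the log2 ratio of red over green was computed and its mean tested against 0 with limma 3.58.1 (R 4.3.3; lmFit and eBayes, two-sided, Benjamini-Hochberg over all kept probes, threshold 0.05). Each array holds 1 treated and 1 control RNA. Tables were made with Python 3.11.15 (pandas 2.3.3, numpy 2.4.6), and the fit was tested on simulated data.

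A gene has the value of its brightest tested probe. Named were, per complex, called genes (up to 4) and the highest and lowest ratio, tissue isoform pairs of complex IV, genes with probes called in opposite directions and genes that encode no subunit, and up to 3 called genes per other list. Members and lists were chosen with earlier results of these data known. The array header names build EquCab1, and exons and UTRs were not assigned. Alternatives were processed signals, the series matrix, no background correction, offset 0, median centring, a running median over 201 probes, no or a stricter filter, limma with trend and robust estimation, the mean over probes, unpaired channels, the methods' t-test, a fold change of at least 1.3 and leaving out each replicate. Promoter motifs were not analysed here, and 1 gene is counted in the totals but not reported by name.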

Additional observations from a re-analysis of the deposited data

How the results depend on the processing

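The 4 called member genes kept their direction under every alternative. With processed signals or the series matrix 4 genes passed (3 shared), and ATP5H did not (-0.17, adjusted p = 0.0678). With offset 0, 3 passed (2 higher, 1 lower), and ATP5H had -0.17 (adjusted p = 0.0635). With a running median over signal 6 passed (4 higher, 2 lower), ATP5J2 among them (0.20, adjusted p = 0.0479). With the mean over probes NDUFA10 did not pass (-0.11, adjusted p = 0.0985).

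With median centring 0 genes passed (0 higher, 0 lower), and 12 probes in all. The medians were then 0.0345 for all member genes, -0.0476 for complex II and 0.11 for complex V, and the ratios were 0.29 for NDUFA13, -0.16 for NDUFA10, 0.47 for ATP5B, -0.0294 for ATP5H and 0.15 for COX6A1. The cause was not tested. A fold change of at least 1.3 beside the adjusted p left 0 genes (0 higher, 0 lower), since the largest ratio was 0.28.

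The pairing lies in the array, where treated and control RNA share each spot. Without this block, in an unpaired fit of the channels, 0 genes passed (0 higher, 0 lower; 594 probes in all), with unchanged ratios and adjusted p of 0.145 (NDUFA13, 0.28), 0.0690 (NDUFA10, -0.20), 0.0542 (ATP5B, 0.25) and 0.128 (ATP5H, -0.17). The methods' t-test was run on the loess ratios used here and not on the software-normalised values of the study. With it 0 passed after Benjamini-Hochberg adjustment (0 higher, 0 lower; 14 at an unadjusted p under 0.05; 5 probes in all), with adjusted p of 0.0773, 0.0779, 0.0778 and 0.127 at these ratios.

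Leaving out 1 replicate gave 0 to 4 genes (0 to 2 higher, 0 to 2 lower), a complex II median of -0.0455 to -0.00358, and ratios of 0.26 to 0.31 (NDUFA13), -0.22 to -0.18 (NDUFA10), 0.23 to 0.27 (ATP5B), -0.19 to -0.13 (ATP5H) and -0.0220 to 0.0919 (COX7B, below 0 only without replicate 1). Over all probes 2, 3899, 38 and 0 passed without replicates 1, 2, 3 and 4, so that the loss depended on which array was left out. Differences below about 0.110 were within the 95% interval of a typical member gene.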

Other observations

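Genes of cytosolic ribosomal proteins, which lie in the brightest range of the array, are a case where the scaling set the direction. Of 74 such genes, 18 were higher and 4 lower with a median ratio of 0.04, whereas less the local median at their signal 0 were higher and 8 lower with a median of -0.05, and with processed signals 3 were higher and 8 lower with a median of -0.04. Member genes of complex I, which are less bright, had medians of -0.04, -0.01 and -0.03 under these 3 scalings.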
